A study of Homo sapiens with 6 samples.

Results

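The subject here is 33 genes of glucose breakdown: 2 glucose transporters, the enzymes of glycolysis with their isoenzymes, the regulatory PFKFB enzymes, the lactate dehydrogenases and lactate transporters, subunits and kinases of the pyruvate dehydrogenase complex, and 3 enzymes of the pentose phosphate pathway. They were chosen by gene symbol, and each of the 33 has its own row among the 39012 rows of the deposited table. RNA-seq libraries came from Jurkat, an established line of human T cell leukaemia: 3 from cells with an empty vector (EV) and 3 from a stable SCML4 overexpression line, SCML4 being a Polycomb group family protein. Before RNA was taken, all 6 had been stimulated for 6 h with 100 ng/ml PMA and 1 µM ionomycin, an agonist of protein kinase C and a calcium ionophore that together stand in for T cell receptor signalling. No unstimulated group was analysed here, so the values describe stimulated cells only. Each genotype was a stable line, and nothing in the labels tells whether the replicates were grown apart. The p-values therefore cover the spread of these libraries alone, and SCML4 excess cannot be told apart from any other difference between the lines.

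Glycolysis splits glucose into pyruvate in the cytosol and yields ATP and NADH. Pyruvate is either reduced to lactate, which regenerates NAD+ and leaves the cell through monocarboxylate transporters, or enters the mitochondria and is oxidised by pyruvate dehydrogenase, which PDK kinases switch off by phosphorylation. The pentose phosphate pathway branches off at glucose 6-phosphate and supplies NADPH and ribose. T cells raise glucose uptake and lactate output when activated, and T cell leukaemia lines keep both high in culture.

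Libraries held 8953671 to 10336597 reads, counted back from the steps between the deposited FPKM values (reads scaled by library and gene length). Reads of SCML4 itself numbered 7, 2 and 1 in the EV libraries against 570, 657 and 506 in the SCML4 libraries, which matched the labels. EV replicate 1 was unlike the rest: its first principal component (26.5% of the variance) was -38.6, against 0.35 to 11.6 elsewhere, and its deviation from the mean of the libraries followed the GC content of genes (Spearman -0.52 over 13322 genes, against 0.05 to 0.30 in the other libraries). All 10 T cell markers had reads in every library, with summed levels of 3180 to 3340 reads per 1000000 (CPM) in EV and 3350 to 3420 in SCML4. Markers of other cells were at or near 0: myeloid markers summed to at most 0.871 CPM with LYZ and FCGR3A at 0, erythroid markers to at most 0.413 with HBB at 0, epithelial markers to at most 0.193 with EPCAM, CDH1 and KRT19 at 0, and fibroblast markers to 1.45 to 2.68 with COL1A2, COL3A1 and DCN at 0. Of 4 B cell markers, CD79A had a level in every library (mean 28.7 CPM) and CD22 was at 0.

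No gene of glucose breakdown differed between the groups at the threshold of an adjusted p of 0.05. All 33 passed the filter of a mean of 0.5 FPKM, and limma-trend on log2(FPKM + 1), adjusted by Benjamini-Hochberg over all 15357 genes tested, called 0 of them; it called 0 of the 15357 genes, or 0%. The overexpressed SCML4 itself did not pass, at an adjusted p of 0.0619, so that 0 calls in this test does not show that levels were the same. At an unadjusted p under 0.05 there was 1 member, the aldolase gene ALDOC, or 3.03% of the members against 5.09% of all genes tested. With limma-voom on the recovered reads, 0 members passed the adjusted threshold where 1 of 14160 genes did (0.00706%), and 3 members had an unadjusted p under 0.05, namely ALDOA, ALDOC and TKT (9.09%, against 5.27% of all genes). With library weights added, 0 members passed where 14 genes did (0.0989%), and 2 members, ALDOC and PDHB, had an unadjusted p under 0.05 (6.06%, against 8.49% of all genes). The lowest adjusted p of any member over all the alternative fits was 0.307, for ALDOC with limma library weights.

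The 33 differences were small and lay on both sides of 0. The difference, SCML4 minus EV on the log2(FPKM + 1) scale, was positive in 19 members and negative in 14 (57.6% positive, against 51.7% of all genes). It ranged from -0.20 in LDHB to 0.50 in ALDOA, with a median of 0.038 against 0.006 over all genes. This scale understates the change of genes with low FPKM. SCML4 itself, at means of 0.351 CPM in EV and 61.0 CPM in SCML4, had a difference of 1.88 on it. For 27 of the 33 members the 95% interval of the difference lay within 0.5 on either side of 0, and for 32 it lay within 1. A step of 0.5 is 1.41-fold in FPKM + 1. The bound on FPKM itself is wider where FPKM is low, as in PFKFB4 (0.67 to 1.21 FPKM). The libraries of the groups did not overlap in 3 members, HK1 and ALDOC on the higher side and LDHB on the lower side in SCML4. That is 9.09% of the members, against 11.3% of all genes tested (6.02% higher and 5.27% lower). The summed level of the 33 genes was 5704, 5753 and 5891 CPM in EV and 6192, 5952 and 5641 CPM in SCML4, or 0.564% to 0.619% of a library. Its means were 5783 ± 97 CPM and 5928 ± 276 CPM (SD, n = 3 each), and the highest and the lowest sum were both in SCML4. In bulk RNA, fewer cells with a transcript and less of it per cell cannot be told apart.

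**Figure D1:**
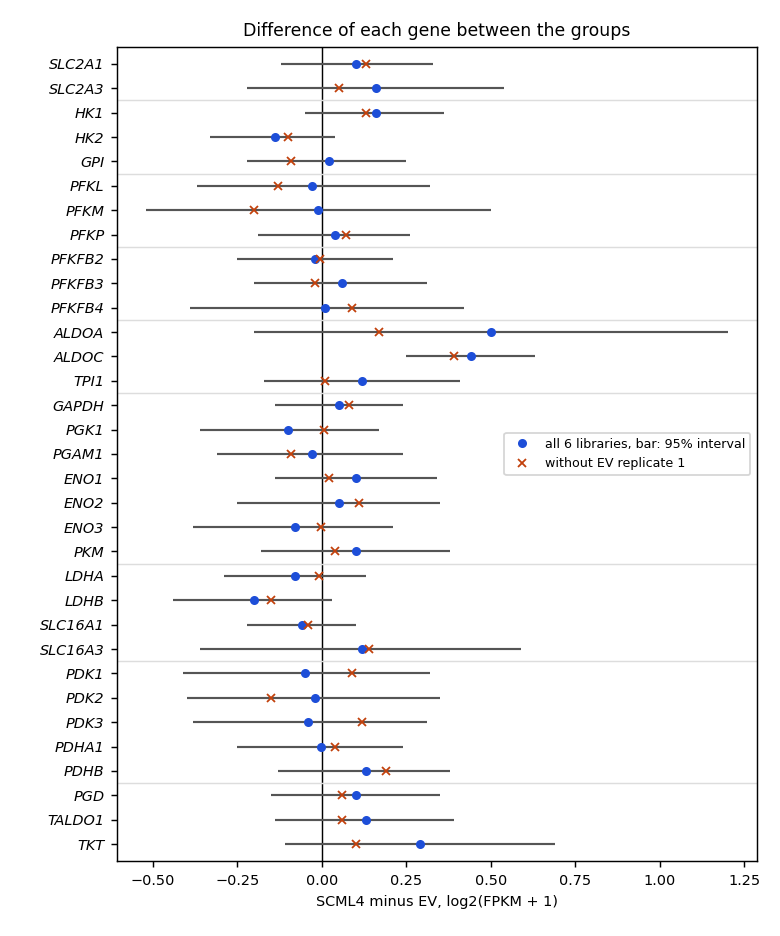
Difference of each of the 33 genes, SCML4 minus EV on the log2(FPKM + 1) scale, in pathway order from glucose uptake at the top to the pentose phosphate pathway at the bottom. Blue points and bars are the limma-trend estimate and its 95% interval over all 6 libraries, and orange crosses are the estimate without EV replicate 1; ALDOC is the 1 interval that leaves out 0, and the estimate of ALDOA moves from 0.50 to 0.17 without that library.

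The genes differed far more among themselves than between the groups. Exonic length here is the bases covered by the exons of all GENCODE 29 transcripts of a gene together. The order of genes per kilobase therefore depends on the transcripts annotated. In mean CPM of the 6 libraries, without length, PKM (852), ENO1 (767) and LDHA (745) stood above GAPDH (461). Per kilobase of exonic length, GAPDH had the highest level at 155 CPM per kilobase. That is above 98.6% of the genes with a length and a mean of at least 10 reads. ENO1 at 145, LDHA at 120, PKM at 99.4 and PGK1 at 79.3 CPM per kilobase came next, and TPI1 (69.9) and PGAM1 (64.4) followed. The 7 highest levels per kilobase thus belonged to the steps from the triose phosphates to lactate. Without length, TKT (mean 329 CPM) and GPI (243 CPM) stood above TPI1 (189 CPM) and PGAM1 (165 CPM). At the other end stood the muscle phosphofructokinase PFKM at 0.413 CPM per kilobase, the kinase PDK2 at 0.816, the lactate exporter SLC16A3 at 1.37, the glucose transporter SLC2A3 at 1.70 and ALDOC at 2.45. In reads, members ranged from 14 reads (PFKM in EV replicate 1) to 9411, and 6 of them had under 100 reads in some library.

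**Figure D2:**
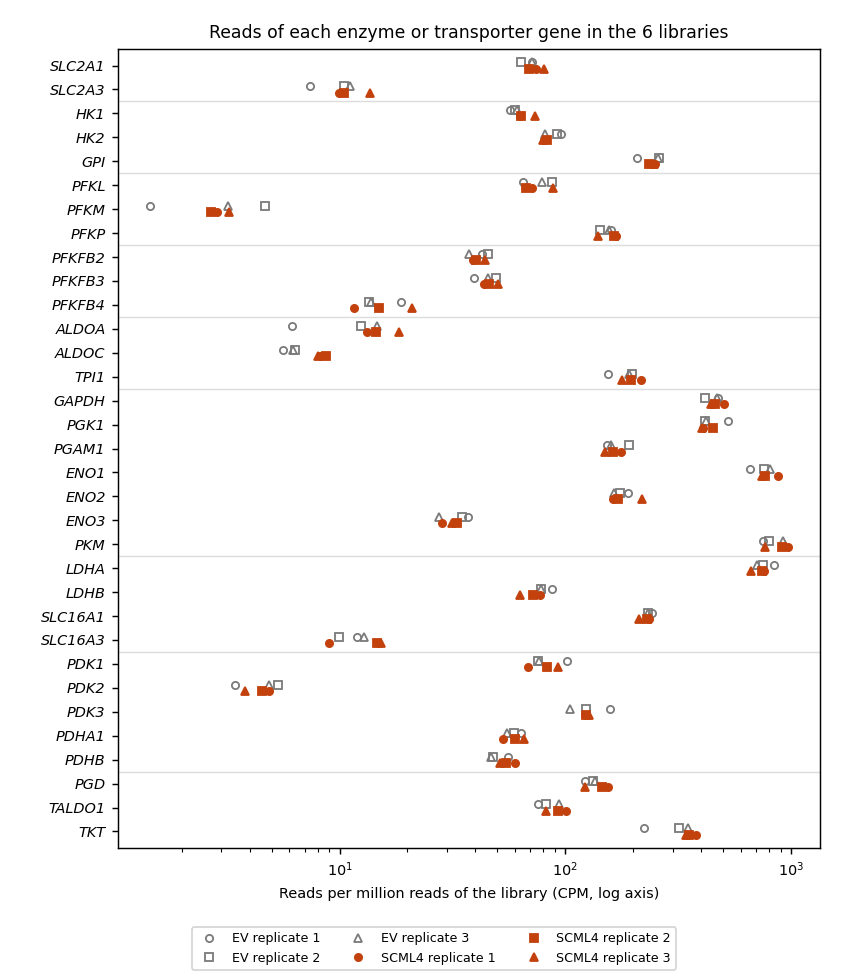
Level of each gene in each of the 6 libraries, in CPM on a log axis, with EV libraries as open grey symbols and SCML4 libraries as filled orange ones. Levels span from 1.45 CPM for PFKM in EV replicate 1 to 967 CPM for PKM in SCML4 replicate 1, while the symbols of a gene lie close together in most rows; the open circle of EV replicate 1 lies apart on the left in PFKM, ALDOA, SLC2A3 and TKT.

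Several of these levels cannot be read as those of the enzyme alone, because the table also lists processed pseudogenes, copies of an mRNA inserted elsewhere in the genome. It holds 112 rows named as pseudogenes of 15 members, and 54 of these rows, for 13 members, had reads. For 4 enzymes the pseudogene rows held more reads than the enzyme's own row. Over the 6 libraries LDHB had 4308 reads on its own row and 35525 on its pseudogene rows, GAPDH had 26131 and 80284, ALDOA had 746 and 2594, and TPI1 had 10673 and 18181. A single row carried most of these reads in each case: LDHBP2 held 35500, GAPDHP1 78893, ALDOAP2 2475 and TPI1P1 17903. Another 4 enzymes had over 10% of their reads on such rows: PGD (40.9% ± 2.74 in EV and 41.0% ± 2.10 in SCML4), HK2 (34.2% ± 2.00 and 34.2% ± 3.50), PGK1 (32.4% ± 4.65 and 33.9% ± 1.93) and PKM (20.4% ± 0.727 and 20.4% ± 0.433). Together the pseudogene rows came to 2991 ± 251 CPM in EV and 3007 ± 189 CPM in SCML4.

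The copies are close in sequence to the enzymes. The first 120 coding bases of GAPDH (chromosome 12) and LDHB (chromosome 12) are shown with the matching stretch of their largest copies, both on chromosome X, because these rows decide how the levels of both genes read. The sequences are those of GENCODE 29 on GRCh38, from 5′ to 3′, and capitals mark the bases that differ within a pair, 3 for GAPDH and 5 for LDHB.
GAPDH: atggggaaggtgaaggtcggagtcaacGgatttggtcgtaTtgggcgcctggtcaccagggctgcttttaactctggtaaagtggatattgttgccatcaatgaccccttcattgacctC
GAPDHP1: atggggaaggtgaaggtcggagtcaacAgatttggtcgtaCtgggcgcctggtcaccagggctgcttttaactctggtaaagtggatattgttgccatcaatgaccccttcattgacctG
LDHB: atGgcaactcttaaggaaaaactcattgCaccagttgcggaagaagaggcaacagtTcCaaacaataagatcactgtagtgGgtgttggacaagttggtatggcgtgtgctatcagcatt
LDHBP2: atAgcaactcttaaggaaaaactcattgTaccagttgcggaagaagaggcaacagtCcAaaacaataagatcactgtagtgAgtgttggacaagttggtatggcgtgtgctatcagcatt
Over the aligned coding sequence, GAPDHP1 differed from GAPDH at 38 of 1002 bases (96.21% identity) and LDHBP2 from LDHB at 60 of 1001 (94.01%). TPI1P1, on chromosome 1, differed from TPI1 at 14 of 747 aligned bases (98.13%), HK2P1, on chromosome X, from HK2 at 91 of 2733 (96.67%), and ALDOAP2, on chromosome 10, from ALDOA at 94 of 1071 (91.22%). Of all stretches of 50 bases in the coding sequence, 40.9% of those in TPI1, 18.2% in HK2, 13.6% in GAPDH, 3.8% in LDHB and 0.9% in ALDOA also occurred without a change in the copy. For stretches of 100 bases this was 14.9% in TPI1, 5.8% in HK2 and 0% in GAPDH, LDHB and ALDOA. No source used here gives the read length or how reads with several matches were counted, so reads of an enzyme and of its copy cannot be told apart with certainty. The shares of reads on pseudogene rows overlapped between the groups in LDHB, ALDOA, GAPDH, TPI1, PGD, HK2, PGK1 and PKM. They did not overlap in SLC2A3 (5.78% ± 1.03 in EV and 3.06% ± 0.589 in SCML4, on 27 pseudogene reads in all) and PGAM1 (2.24% ± 0.289 and 1.26% ± 0.521, on 167), where few reads lay on such rows.

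**Figure D3:**
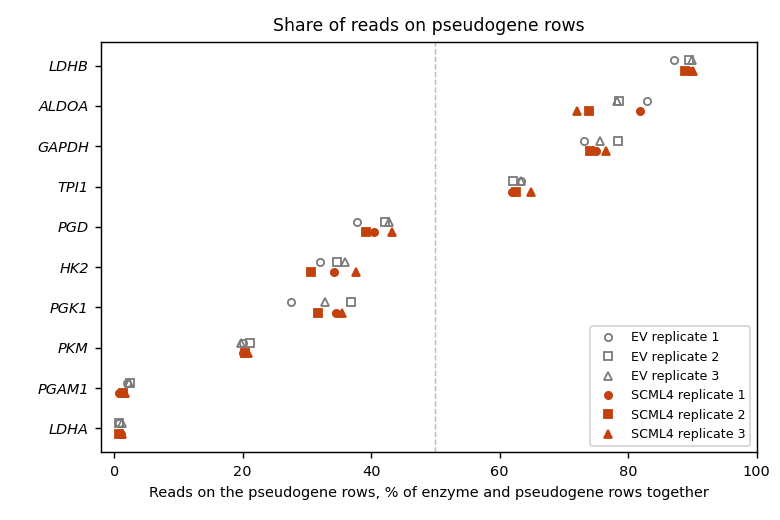
Share of reads that lay on pseudogene rows, as a percentage of the reads of an enzyme and its pseudogenes together, in each of the 6 libraries for 10 members. LDHB, ALDOA, GAPDH and TPI1 lie to the right of the dashed line at 50% in every library, and EV (open) and SCML4 (filled) symbols overlap in those 4 genes.

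Both glucose transporters had a slightly higher mean in SCML4. SLC2A1 (GLUT1), the transporter of most proliferating cells, had 71.1, 63.7 and 70.9 CPM in EV and 73.8, 68.8 and 80.3 CPM in SCML4. SLC2A3 (GLUT3), a transporter of high glucose affinity, had 7.37, 10.5 and 11.1 CPM in EV and 9.93, 10.5 and 13.6 CPM in SCML4. The groups overlapped in both genes, and the lowest SLC2A3 value was that of EV replicate 1. The differences were 0.10 for SLC2A1 (95% interval -0.12 to 0.33) and 0.16 for SLC2A3 (-0.22 to 0.54), with limma adjusted p of 0.925 and 0.927. Without EV replicate 1 that of SLC2A3 was 0.05, and without SCML4 replicate 3 that of SLC2A1 was 0.05. Per exonic length SLC2A1 made up 90.2% ± 2.09 of the pair in EV and 89.5% ± 1.08 in SCML4.

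The hexokinases, which phosphorylate glucose and hold it in the cell, had differences of opposite sign. HK1, the isoenzyme of most tissues, had 56.8, 60.1 and 61.3 CPM in EV and 63.1, 63.5 and 73.3 CPM in SCML4. HK2, an isoenzyme of muscle and of many tumour and activated immune cells, had 95.4, 92 and 81.7 CPM in EV and 80.8, 82.7 and 79.3 CPM in SCML4. Every SCML4 library was above every EV library in HK1, while in HK2 the groups overlapped by a small margin, the lowest EV library at 81.7 CPM lying below the highest SCML4 library at 82.7. The difference was 0.16 for HK1 (-0.05 to 0.36) and -0.14 for HK2 (-0.33 to 0.04), and both had a limma adjusted p of 0.905. As a share of the reads of the pair, HK1 took 37.3%, 39.5% and 42.8% in EV and 43.9%, 43.4% and 48.0% in SCML4, which do not overlap. The mean share was 39.9% ± 2.79 in EV and 45.1% ± 2.54 in SCML4, 5.21 percentage points apart. With the reads of HK2P1 counted to HK2, HK1 had 30.4% ± 1.86 and 35.1% ± 1.33, again without overlap, 4.69 points apart. Exact permutation of 3 against 3 libraries cannot give a two-sided p below 0.1, and the shares were not tested. Shares were also taken in glucose transporters, phosphofructokinases, PFKFB enzymes, aldolases, enolases, lactate transporters, PDK kinases and E1 subunits. On the enzyme rows they overlapped in all of these, and did not in the lactate dehydrogenases. Among the levels of single genes, 11.3% of all genes tested had groups that did not overlap. Without EV replicate 1 the differences were 0.13 in HK1 and -0.10 in HK2.

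GPI, which turns glucose 6-phosphate into fructose 6-phosphate, had 208, 261 and 258 CPM in EV and 249, 236 and 248 CPM in SCML4. The SCML4 libraries lay inside the range of the EV libraries, and the difference was 0.02 (-0.22 to 0.25; limma adjusted p 0.989). It turned to -0.09 without EV replicate 1.

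Phosphofructokinase, the committed step of glycolysis, was made up mainly of the platelet form PFKP and the liver form PFKL. PFKP had 160, 143 and 156 CPM in EV and 167, 164 and 140 CPM in SCML4. PFKL had 65.0, 87.1 and 78.7 CPM in EV and 70.9, 67.1 and 88.2 CPM in SCML4. The muscle form PFKM rested on 14, 42 and 31 reads in EV against 26, 28 and 29 in SCML4, or 1.45, 4.68 and 3.20 CPM and 2.87, 2.71 and 3.24 CPM. The groups overlapped in all of the family, and EV replicate 1 had 36.9% of the mean of the other EV libraries in PFKM. Per exonic length PFKP took 77.7% ± 3.83 of the family in EV and 78.5% ± 4.16 in SCML4, PFKL 21.2% ± 3.27 and 20.6% ± 4.03, and PFKM 1.05% ± 0.558 and 0.975% ± 0.133. The differences lay between -0.03 and 0.04, and the interval of PFKM was wide, from -0.52 to 0.50.

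The PFKFB enzymes make and break fructose 2,6-bisphosphate, the strongest activator of phosphofructokinase. PFKFB2 had 42.7, 45.6 and 37.4 CPM in EV and 39.1, 40.4 and 44.1 CPM in SCML4. PFKFB3, the form in which the kinase activity most outweighs the phosphatase activity, had 39.3, 49.5 and 45.5 CPM in EV and 43.8, 46.0 and 50.1 CPM in SCML4. PFKFB4 had 18.8, 13.5 and 13.8 CPM in EV and 11.6, 14.9 and 20.9 CPM in SCML4. In each of them the groups overlapped, and PFKFB4 held both its lowest and its highest value in SCML4. Their differences were -0.02 (-0.25 to 0.21), 0.06 (-0.20 to 0.31) and 0.01 (-0.39 to 0.42), with limma adjusted p of 0.956 or more. Per exonic length PFKFB3 was the largest of the family, at 52.5% ± 4.76 in EV and 53.7% ± 2.10 in SCML4.

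The largest positive differences of the module were in the aldolases, which split fructose 1,6-bisphosphate into trioses, and both rested on few reads. ALDOC, the brain form, was counted at 54, 57 and 60 reads in EV against 74, 90 and 72 in SCML4, or 5.61, 6.36 and 6.20 CPM and 8.16, 8.71 and 8.04 CPM. All SCML4 libraries lay above all EV libraries, with means of 8.30 ± 0.354 and 6.05 ± 0.395 CPM. The difference was 0.44 (0.25 to 0.63), with an unadjusted p of 0.00116 and a limma adjusted p of 0.793. It was 0.39 without EV replicate 1, and 0.32 with an adjusted p of 0.843 once GC content and length were corrected for in the reads. In GENCODE 29 an antisense gene covers 10.1% of its exonic length, and no source used here says whether counting used the strand. Such an overlap of over 10% with another gene was found in 6 members. On the opposite strand it was 38.6% in PDK2, 21.3% in PDHA1, 14.2% in GAPDH and 13.3% in ALDOA. ALDOA and LDHB also had overlaps on the same strand, given below.

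ALDOA, the form of muscle and of most dividing cells, was counted at 59, 111 and 141 reads in EV against 121, 150 and 164 in SCML4, or 6.13, 12.4 and 14.6 CPM and 13.3, 14.5 and 18.3 CPM. The groups overlapped, and EV replicate 1 was at 45.5% of the mean of the other EV libraries. The difference of 0.50 (-0.20 to 1.2; limma adjusted p 0.905) was 0.17 (-0.22 to 0.56; adjusted p 0.928) without that library. With pseudogene rows added ALDOA had 53.5 ± 16.0 CPM in EV and 64.9 ± 8.94 CPM in SCML4, a difference of 0.31 on log2(CPM + 1). In GENCODE 29 another protein-coding gene on the same strand covers 42.3% of its exonic length. ALDOA took 62.8% ± 9.40 of the reads of the pair in EV and 64.7% ± 4.17 in SCML4, and 89.4% and 88.5% with pseudogene rows added.

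TPI1, which interconverts the trioses, had 154, 197 and 191 CPM in EV and 216, 195 and 178 CPM in SCML4. The groups overlapped, the difference was 0.12 (-0.17 to 0.41; limma adjusted p 0.929), and with pseudogene rows added it was 0.13. Without EV replicate 1, the lowest EV library, it was 0.01.

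The enzymes from glyceraldehyde 3-phosphate to pyruvate differed by at most 0.10 in either direction. ENO1, the general enolase, had 657, 758 and 808 CPM in EV and 872, 767 and 740 CPM in SCML4. ENO2, the neuronal enolase, had 189, 174 and 164 CPM in EV and 162, 171 and 218 CPM in SCML4. ENO3, the muscle enolase, had 36.9, 34.8 and 27.6 CPM in EV and 28.5, 33 and 31.4 CPM in SCML4. The groups overlapped in all enolases, with SCML4 replicate 1 highest in ENO1 and SCML4 replicate 3 highest in ENO2. Per exonic length ENO1 took 74.1% ± 3.61 of the family in EV and 74.9% ± 4.08 in SCML4, ENO2 21.8% ± 2.85 and 21.4% ± 3.86, and ENO3 4.10% ± 0.804 and 3.61% ± 0.414.

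PKM, the pyruvate kinase gene of dividing cells, had 748, 800 and 918 CPM in EV and 967, 910 and 770 CPM in SCML4. GAPDH, which makes NADH in glycolysis and often serves as a reference gene, had 476, 417 and 468 CPM in EV and 503, 460 and 442 CPM in SCML4. Neither group lay apart from the other, and GAPDH varied by 6.96% in EV and 6.64% in SCML4 (coefficient of variation). The difference was 0.10 in PKM (-0.18 to 0.38) and 0.05 in GAPDH (-0.14 to 0.24), with limma adjusted p of 0.936 and 0.954. With its pseudogene rows GAPDH came to 1870 ± 88.8 CPM in EV and 1890 ± 120 CPM in SCML4. PGK1, the first ATP-making enzyme of the pathway, had means of 453 ± 60.2 and 421 ± 28.1 CPM, and PGAM1, the mutase after it, had 168 ± 20.6 and 163 ± 13.9 CPM. In PGK1, EV replicate 1 was highest at 523 CPM, and the difference of -0.10 came to 0.005 without it.

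No lactate gene passed the test, and 1 of the 4 differences was positive. LDHA, the subunit that favours lactate formation, had 844, 750 and 704 CPM in EV and 762, 745 and 666 CPM in SCML4. LDHB, the subunit that favours the reverse reaction, had 87.7, 78.2 and 77.8 CPM in EV and 77.4, 72.2 and 62.7 CPM in SCML4. LDHA overlapped between the groups, while every SCML4 library was below every EV library in LDHB, by a narrow margin at the closest pair (77.8 and 77.4 CPM). The difference was -0.08 in LDHA (-0.29 to 0.13; limma adjusted p 0.932) and -0.20 in LDHB (-0.44 to 0.03; unadjusted p 0.0798, adjusted p 0.905). LDHA came to -0.008 without EV replicate 1, and LDHB to -0.12 without SCML4 replicate 3. In GENCODE 29 another protein-coding gene on the same strand covers 33.4% of the exonic length of LDHB.

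The balance of the 2 lactate dehydrogenase genes depended on the pseudogene rows. On the enzyme rows LDHA took 90.6%, 90.6% and 90.1% of the reads of the pair in EV and 90.8%, 91.2% and 91.4% in SCML4, without overlap, with means of 90.4% ± 0.299 and 91.1% ± 0.319. With the pseudogene rows added, LDHA took 55.5%, 50.7% and 48.1% in EV and 50.5%, 53.6% and 51.6% in SCML4, which overlap. Per exonic length LDHA stood at 82.5% of the pair on the enzyme rows and at 34.0% with the pseudogene rows added, as means of 6 libraries. LDHB with its pseudogene rows had 682, 735 and 770 CPM in EV and 755, 650 and 632 CPM in SCML4, with overlap, and a difference of -0.10 (-0.29 to 0.08; adjusted p 0.895 in limma on log2(CPM + 1)). HK2 with its pseudogene row, in contrast, had 140, 141 and 128 CPM in EV and 123, 119 and 127 CPM in SCML4, all EV libraries above all SCML4 libraries, with a difference of -0.14 (-0.31 to 0.02; adjusted p 0.864).

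**Figure D4:**
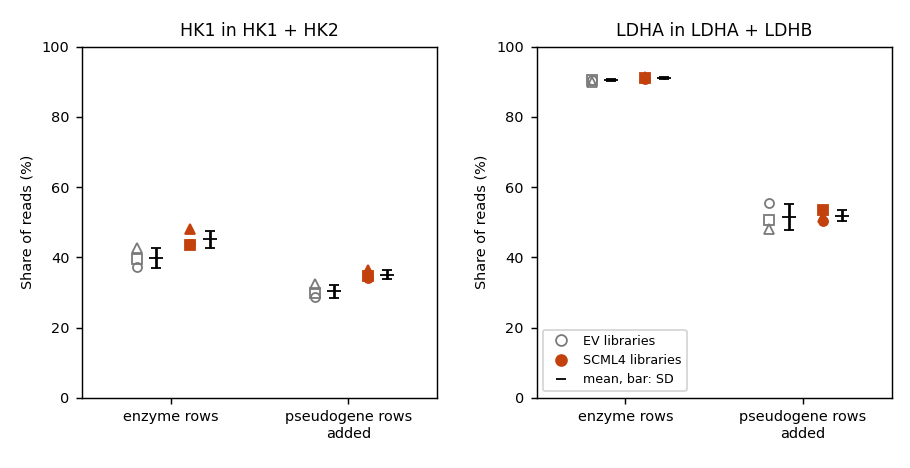
Share of HK1 in the reads of HK1 and HK2 (left) and of LDHA in the reads of LDHA and LDHB (right), in percent, from the enzyme rows alone and with pseudogene rows added; open symbols are EV libraries, filled ones SCML4 libraries, and bars are the mean and SD of 3 libraries. The HK1 groups lie apart under both counts, at 39.9% and 45.1% on the enzyme rows, while LDHA has a mean of 90.8% on the enzyme rows and 51.7% with pseudogene rows and its groups overlap in the second count.

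Lactate leaves through the monocarboxylate transporters. SLC16A1 (MCT1) had 241, 232 and 232 CPM in EV and 235, 231 and 212 CPM in SCML4, and SLC16A3 (MCT4), a low-affinity exporter of highly glycolytic cells, had 12, 9.92 and 12.8 CPM in EV and 8.94, 14.7 and 15.3 CPM in SCML4. The groups overlapped in both, and SLC16A1 had the narrowest interval of the lactate genes, a difference of -0.06 with bounds of -0.22 and 0.10. SLC16A3 had a difference of 0.12 (-0.36 to 0.59). SLC16A1 took 95.3% of their reads in EV and 94.5% in SCML4.

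The kinases that switch off pyruvate dehydrogenase were led by PDK3. It had 158, 124 and 105 CPM in EV and 122, 123 and 128 CPM in SCML4. PDK1, a kinase gene that hypoxia is known to induce, had 102, 75.4 and 76.1 CPM in EV and 68.6, 83.1 and 92.4 CPM in SCML4. PDK2 had 3.43, 5.35 and 4.86 CPM in EV and 4.85, 4.55 and 3.80 CPM in SCML4. The groups overlapped in each kinase, and EV replicate 1 was highest in PDK1 and PDK3 and lowest in PDK2. The differences were -0.05 (-0.41 to 0.32) in PDK1, -0.02 (-0.40 to 0.35) in PDK2 and -0.04 (-0.38 to 0.31) in PDK3, and without EV replicate 1 those of PDK1 and PDK3 were 0.09 and 0.12. Per exonic length PDK3 took 79.9% ± 1.62 of the kinases in EV and 80.0% ± 1.5 in SCML4.

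The subunits of the pyruvate dehydrogenase E1 enzyme had similar levels. PDHA1, the alpha subunit that the kinases phosphorylate, had 63.4, 59.3 and 55.4 CPM in EV and 52.8, 59.9 and 65.4 CPM in SCML4. PDHB, the beta subunit, had 55.6, 47.6 and 46.9 CPM in EV and 60.0, 54.7 and 51.6 CPM in SCML4. The groups overlapped in both, with the same mean of 59.4 CPM for PDHA1 in EV and SCML4. The difference was -0.003 in PDHA1 (-0.25 to 0.24) and 0.13 in PDHB (-0.13 to 0.38), with limma adjusted p of 0.997 and 0.923.

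All 3 pentose phosphate genes had positive differences, and none passed the test. TKT, the transketolase that links the pathway back to glycolysis, had 224, 320 and 351 CPM in EV and 381, 354 and 343 CPM in SCML4. The groups overlapped, with EV replicate 1 at 66.8% of the mean of the other EV libraries. Its difference was 0.29 (-0.11 to 0.69; limma adjusted p 0.905), and 0.10 without that library. TALDO1, the transaldolase, had 83.9 ± 8.95 CPM in EV and 92.2 ± 9.19 CPM in SCML4, a difference of 0.13 (-0.14 to 0.39). PGD, the second NADPH-making enzyme of the pathway, had 130 ± 6.91 and 140 ± 16.5 CPM, a difference of 0.10 (-0.15 to 0.35).

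EV replicate 1 bore on the members as it did on the whole table. Of the 33 genes, 17 had their farthest value from the mean of 6 libraries in it, 14 their lowest value and 8 their highest. In SCML4 replicate 3 these counts were 8, 8 and 10, and SCML4 replicate 1 held the highest value of 9 genes. EV replicate 1 was low, against the mean of EV replicates 2 and 3, in PFKM (36.9%), ALDOA (45.5%), TKT (66.8%), PDK2 (67.1%) and SLC2A3 (68.5%). It was high in PDK3 (138%), PFKFB4 (137%), PDK1 (134%) and PGK1 (125%). Over the 33 genes its deviation had a Spearman correlation of -0.41 with GC content, against -0.13 to 0.31 in the other libraries. Without it limma-trend again called 0 members, 21 differences were positive, and ALDOC was again the single member with an unadjusted p under 0.05, where 6.06% of all genes had one. With limma-voom without EV replicate 1 that single member was PDHB instead (6.6% of all genes). After GC and length correction of all 6 libraries ALDOC was not among them, and HK2, LDHB and TKT were (9.09% of the members, against 5.95% of all genes).

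**Figure D5:**
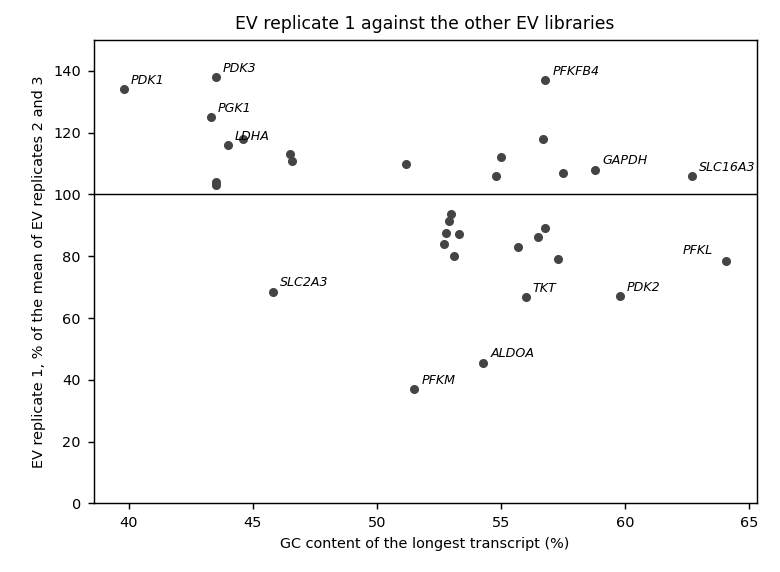
Level of each of the 33 genes in EV replicate 1 as a percentage of the mean of EV replicates 2 and 3, against the GC content of the gene's longest transcript in percent. Genes of under 45% GC, such as PDK1 and PDK3, lie above the line at 100%, and most genes far below it, such as ALDOA and TKT, have over 50%.

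The other genes of these pathways also gave 0 calls. Of 55 further genes listed, 10 were at 0 reads in every library, among them the gluconeogenic phosphatases FBP1 and FBP2, the testis and muscle isoenzymes PGK2 and PGAM2, the kinase PDK4 and the transporter SLC2A2. At these depths a 0 leaves room for 3 reads, 0.29 to 0.335 CPM depending on the library, from counting error alone. Limma tested 31 and called 0, with 18 positive and 13 negative differences and a median of 0.032, against 0.006 over all genes. Of the 31, 5 had an unadjusted p under 0.05 (16.1%, against 5.09% of all genes), and 5 had groups that did not overlap, all higher in SCML4 (16.1%, against 11.3% of all genes in either direction). HKDC1, a relative of the hexokinases, fell short of the FPKM filter and was not tested. It is named after its values were seen. HKDC1 had 36, 57 and 54 reads in EV against 32, 38 and 13 in SCML4. In CPM every SCML4 library was below every EV library. The filter depends on FPKM lengths that were not those of the named genes. LDHD and LDHAL6A passed it on fewer reads, and both are among the 5 with an unadjusted p under 0.05. The 4 tested genes with the smallest unadjusted p included 2 further pentose phosphate genes. PGLS, the lactonase, had 22.4 ± 2.21 CPM in EV and 28.6 ± 2.82 CPM in SCML4, a difference of 0.32 (0.05 to 0.59), and H6PD, the glucose 6-phosphate dehydrogenase of the endoplasmic reticulum, had 114 ± 1.83 and 130 ± 8.25 CPM, a difference of 0.19 (0.03 to 0.35). In both, all SCML4 libraries lay above all EV libraries, and the limma adjusted p was 0.905. LDHD, a D-lactate dehydrogenase, had 6, 3 and 5 reads in EV against 6, 9 and 9 in SCML4, and LDHAL6A, a relative of LDHA, had 11, 13 and 6 reads and 5, 7 and 4.

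Regulators and hypoxia targets were not called either. Of 20 regulators listed 17 were tested and 0 called, with 4 positive and 13 negative differences and a median of -0.04. MYCN, a relative of the transcription factor gene MYC, had 23, 12 and 28 reads in EV against 25, 39 and 35 in SCML4, with overlap. MXI1 and ARRDC4 had differences of -0.13 and -0.23. Of 22 hypoxia targets, none of them a member, 17 were tested and 0 called, with 7 positive and 10 negative differences and a median of -0.09, and 2 had an unadjusted p under 0.05 (11.8%, against 5.09% of all genes). LOX, lysyl oxidase, had 1.84 ± 0.179 CPM in EV and 1.2 ± 0.072 CPM in SCML4, and ANKRD37 had 5.57 ± 0.483 and 7.30 ± 0.721 CPM. The groups did not overlap in these 2 genes (11.8% of those tested, against 11.3% of all genes), in opposite directions, on differences of -0.48 and 0.35 with an adjusted p of 0.905 in limma. ADM and P4HA1 had differences of 0.54 and -0.17, with overlap.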

How the data were processed

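Per the labels' protocols, TRIzol RNA went into a SMARTer mRNA library kit. FastQC, STAR, SAMtools and hg19 are the tools and build listed, without versions, per the submitters' processing notes. No source used here names the counting tool, the annotation or the gene lengths. Per the file headers, the deposited values are FPKM, 1 column per library. From the FPKM steps, whole reads were recovered for 100% of the 23897 genes above 0 (tolerance 0.002 of a read); the step was tried on simulated data. The lengths implied by the FPKM were not those of the named genes (Spearman -0.005 with exonic length over 13322 genes), so levels are CPM (reads per 1000000 library reads), and genes are compared per exonic length from GENCODE 29. Exonic length counts each base covered by an exon of any annotated transcript once. All 33 members had a length.

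SCML4 minus EV was fitted with limma 3.58.1 (limma-trend, R 4.3.3) on log2(FPKM + 1), keeping genes whose mean FPKM reached 0.5, adjusted by Benjamini-Hochberg, threshold 0.05. The filter and the added 1 act on the deposited FPKM, so both depend on the implied lengths, which were not those of the named genes. The fits were tested on simulated data. Pseudogene rows were found by symbol (member, P and digits). The members and gene lists were chosen with earlier results of these data known. Within each role, the member with most reads, that of smallest p and all isoenzymes get values in every library; from each other list, up to 4 genes of smallest p are named. Some genes are not reported here. The pseudogene sums as a fit and limma-voom without EV replicate 1 were added after the data had been seen; the other alternatives were other pseudocounts, filters, scalings, weights, a replicate block, fits of recovered reads and leaving out each library.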

Additional observations from a re-analysis of the deposited data

How the results depend on the processing

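No member passed the threshold under any alternative run. The lists of other pathway genes, regulators and hypoxia targets also stayed at 0 calls. Of 689 alternative values of member differences, 628 kept the sign, and 16 of 33 members kept it in all (12 positive, 4 negative). Scaling moved the median of all genes by at most 0.009. The count over all genes, 0, was 7 without a filter, 4 without the intensity trend, 1 with library weights, 1 with limma-voom, 14 with weighted limma-voom, 1 with limma-trend on log2(CPM + 1), 3 after GC and length correction and 1 with pseudogene rows added. Leaving out a library gave 0 to 13, the 13 with limma-voom without EV replicate 1 and 0 with limma-trend without any 1 library. The members' median of 0.038 was 0.049 with weighted limma-voom, 0.001 after GC and length correction and 0.018 with pseudogene rows added, and 0.010 (without SCML4 replicate 3) to 0.056 (without EV replicate 2) with a library left out. The LDHA share differed by 1.23 points per exonic length, against 0.71 points in reads.

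Signs turned in small differences, and the cause was not tested. With library weights and with weighted limma-voom, in that order, GPI was -0.07 and -0.07, PFKFB3 -0.01 and -0.01, PGK1 0.01 and 0.0028, PDK1 0.05 and 0.05, PDK3 0.06 and 0.06, and PDHA1 0.03 and 0.02. After GC and length correction PFKP was -0.03, PFKFB2 0.02, PFKFB4 -0.05, GAPDH -0.04, ENO2 -0.0045 and PDK1 0.03. PFKM was 0.04 and 0.0022 with pseudocounts of 0.1 and 0.5, 0.0086 with quantile normalization, 0.07 with limma-voom, 0.02 with limma-trend on log2(CPM + 1) and 0.02 with pseudogene rows added. With 1 library left out, ranges were -0.09 to 0.08 in GPI, -0.15 to 0.06 in PFKL, -0.39 to 0.16 in PFKM, -0.01 to 0.12 in PFKP, -0.10 to 0.04 in PFKFB2, -0.03 to 0.13 in PFKFB3, -0.10 to 0.16 in PFKFB4, -0.01 to 0.09 in GAPDH, -0.16 to 0.006 in PGK1, -0.10 to 0.05 in PGAM1, -0.08 to 0.14 in ENO2, -0.21 to 0.0046 in ENO3, -0.0018 to 0.33 in SLC16A3, -0.13 to 0.09 in PDK1, -0.21 to 0.06 in PDK2, -0.17 to 0.12 in PDK3 and -0.07 to 0.07 in PDHA1. Among members that kept their sign, leaving out 1 library gave 0.05 to 0.15 in SLC2A1, 0.05 to 0.23 in SLC2A3, 0.09 to 0.19 in HK1, -0.21 to -0.10 in HK2, 0.17 to 0.72 in ALDOA, 0.39 to 0.47 in ALDOC, 0.01 to 0.18 in TPI1, 0.02 to 0.16 in ENO1, 0.03 to 0.19 in PKM, -0.14 to -0.0074 in LDHA, -0.27 to -0.12 in LDHB, -0.09 to -0.02 in SLC16A1, 0.07 to 0.23 in PDHB, 0.03 to 0.19 in PGD, 0.06 to 0.20 in TALDO1 and 0.10 to 0.42 in TKT.

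Same-numbered libraries had correlations of deviations of -0.0187, -0.0469 and -0.00999, against -0.0422 to 0.0675 for libraries of unlike number. So few libraries cannot show whether the numbers mark a shared culture or day, and the labels do not say. With the replicate number as a block, 0 members and 0 genes passed, and the members' median was 0.038. Depth limits ALDOA, ALDOC, PFKM, PDK2, SLC2A3 and SLC16A3 most, each with under 100 reads in some library.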
